A study of Sus scrofa with 12 samples.

Results

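The miR-26, miR-29 and miR-30 families were described in the ovaries of sows with small and large litters. The members were the mature miRNAs of the small RNA table whose number, without its letter and arm, is 26, 29 or 30, which gave 17 of the 457 listed miRNAs: 3 of miR-26, 4 of miR-29 and 10 of miR-30. The ovaries came from Sus scrofa sows of a commercial herd, in which the left ovary was taken 4 days after the 4th delivery. The small litter size group (SLS, 8.48 piglets per litter) held ovaries ZD2, ZD3 and ZD12, and the large litter size group (LLS, 16.19 piglets per litter) held ovaries ZD5, ZD7 and ZD8. By the ovary numbers in the sample titles, each ovary gave a small RNA library and a ribosome-depleted total RNA library. Matching of small RNA to gene libraries rests on these numbers. The 3 libraries of a group thus stand for 3 ovaries, and each value below comes from a single library. No strain, treatment or manipulation is named in the labels, and breed and age are not given there.

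A mature miRNA guides a silencing complex to messenger RNAs, mainly through its seed, the stretch of bases near its 5′ end that pairs with the 3′ untranslated region of the target. miR-26 is known to act on the polycomb enzyme EZH2 and on cell cycle genes and lies within introns of the CTDSP phosphatase genes, miR-29 is known for its action on collagens and other matrix genes and on DNA methylation enzymes, and miR-30 for its action on genes of autophagy, of the epithelial state and of vessel growth. A hairpin precursor yields a 5p and a 3p arm, of which one is usually kept and the other mostly degraded.

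The mature sequences in the deposited table show what the members of a family share. The arm with the higher level at each hairpin is printed here 5′ to 3′ as DNA letters, with bases 2 to 8, the seed, in capitals.
miR-26a: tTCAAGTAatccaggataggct
miR-26b-5p: tTCAAGTAattcaggataggtt
miR-29a-3p: cTAGCACCatctgaaatcggtta
miR-29b: tAGCACCAtttgaaatcagtgtt
miR-29c: tAGCACCAtttgaaatcggtta
miR-30a-5p: tGTAAACAtcctcgactggaag
miR-30b-5p: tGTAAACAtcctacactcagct
miR-30c-5p: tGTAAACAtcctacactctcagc
miR-30d: tGTAAACAtccccgactggaagct
miR-30e-5p: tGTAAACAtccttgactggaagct
The miR-30 family thus had 5 members with the seed GTAAACA, miR-26 had 2 with TCAAGTA, and miR-29b and miR-29c shared AGCACCA. miR-29a-3p is listed with 1 more base at its 5′ end, so that its bases 2 to 8 read TAGCACC and its bases 3 to 9 read AGCACCA. None of the other listed miRNAs carried the seed of any member.

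Some family members differed by few bases outside the seed. Counting from the 5′ end, miR-26b-5p differed from miR-26a by C11T and C21T, miR-30d differed from miR-30a-5p by T12C and miR-30e-5p by C13T, each with 2 more bases at the 3′ end. miR-29c differed from miR-29b by A18G, G21T and T22A, and miR-29a-3p, read from its second base, differed from miR-29c by T10C. The rule by which a read that fits more than one of them was assigned is not given in the sources used here, so the split of reads between close copies is uncertain, while the family sums are less exposed to it.

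The other 7 members are opposite arms, which carry other seeds. miR-30a-3p and miR-30e-3p, which share the seed TTTCAGT, differed by G18A, and they are printed with miR-30b-3p because the results turn on how these arms follow their partners.
miR-30a-3p: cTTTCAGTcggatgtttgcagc
miR-30e-3p: cTTTCAGTcggatgtttacagc
miR-30b-3p: cTGGGAGGtggatgtttactt
The remaining opposite arms were miR-30c-1-3p and miR-30c-3p with the seed TGGGAGA, miR-26b-3p with CTGTTCT and miR-29a-5p with CTGATTT.

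On the Sscrofa11.1 assembly, read from RefSeq, miR-26a matched at chr5:23112793-23112814 on the minus strand, in an intron of CTDSP2, and nowhere else. miR-26b-5p matched at chr15:120453420-120453441 on the plus strand, in an intron of CTDSP1. The miR-29 hairpins lie in pairs outside annotated genes, MIR29B-1 and MIR29A within 489 nt on chromosome 18 and MIR29B-2 and MIR29C within 647 nt on chromosome 9. The miR-30 hairpins also lie in pairs, MIR30D and MIR30B within 4201 nt on chromosome 4 outside annotated genes, MIR30C-2 and MIR30A within 29152 nt on chromosome 1 in introns of LOC102157778, and MIR30C-1 and MIR30E within 3140 nt on chromosome 6 in introns of NFYC. miR-29b and miR-30c-5p each come from 2 hairpins on different chromosomes, and their reads cannot be assigned to one of them.

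The totals to which the small RNA reads were scaled, recovered from the deposited values, were between 3537619 and 9854086 reads. Of these, 97.6% to 98.7% fell on listed miRNAs. The values do not show which other reads enter this total, so it need not be the sequencing depth. It is called the library total below, and shares of a library are shares of it. Levels are reads scaled to the library total (RPM), on which scale 3 reads are worth between 0.304 and 0.848 RPM. Levels of different miRNAs also depend on how well each is ligated and amplified, which was not measured here. The gene library of ZD8 stood apart in cell type markers. Of 7 luteal markers, 6 were lowest in ZD8, where the list summed to 124 FPKM (fragments scaled to transcript length and library total) against 10859 and 12191 in the other LLS ovaries and 9167 to 10808 in the SLS ovaries. The other luteal marker, PRLR, was instead highest in ZD8, at 1.16 FPKM. It was listed at 0 in ZD3 and was at most 0.167 FPKM in the remaining ovaries. All 7 oocyte markers were highest in ZD8, where they summed to 126.1 FPKM against 6.31 to 23.0 in the other 5 ovaries, and the 2 theca markers summed to 415.0 FPKM in ZD8, 74.4 in ZD12 and 9.31 to 18.9 elsewhere. The 6 granulosa markers summed to 124.1 FPKM in ZD8 against 418.9 to 861.3 elsewhere, with INHA and FST lowest and FSHR and AMH highest in ZD8, and the aromatase gene CYP19A1 was listed at 0 in 5 of the 6 ovaries.

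The 3 families together made up between 10.5% and 30.5% of a library, and most of this was miR-26a. In the order ZD2, ZD3 and ZD12, the miR-26 family took 8.09%, 11.9% and 22.5% of the SLS libraries, and in the order ZD5, ZD7 and ZD8 it took 11.0%, 9.93% and 27.6% of the LLS libraries. The highest share was thus in an LLS ovary and the next in an SLS ovary, and the group means were 14.1% ± 7.45 in SLS and 16.2% ± 9.92 in LLS (SD, n = 3). The miR-29 family took 0.471%, 0.676% and 1.17% in the SLS ovaries and 0.692%, 0.473% and 1.06% in the LLS ovaries, with ZD12 and ZD8 again above the other 4. The group means were 0.772% ± 0.358 and 0.743% ± 0.299 (SD, n = 3). The group ranges overlapped in both families, and the difference between the means was smaller than either SD.

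The miR-30 family was nearly level across the ovaries on this scale. It took 1.96%, 1.95% and 1.93% of the SLS libraries and 2.14%, 2.01% and 1.84% of the LLS libraries, so that the highest share was 1.17 times the lowest, against 3.42 times for miR-26 and 2.48 times for miR-29. The mean was 1.95% ± 0.0160 in SLS and 1.99% ± 0.153 in LLS (SD, n = 3). The counting error of these shares was small, with 95% Wilson intervals of at most 0.0337 percentage points on either side for any family, which cover counting error only. The evenness depended on the scale. Once the reads of miR-21-5p, which alone took 3.37% to 31.4% of a library, were left out of the total, a scale chosen after seeing the data, miR-30 took 2.83%, 2.43% and 2.11% in SLS and 2.86%, 2.92% and 1.90% in LLS.

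**Figure D1:**
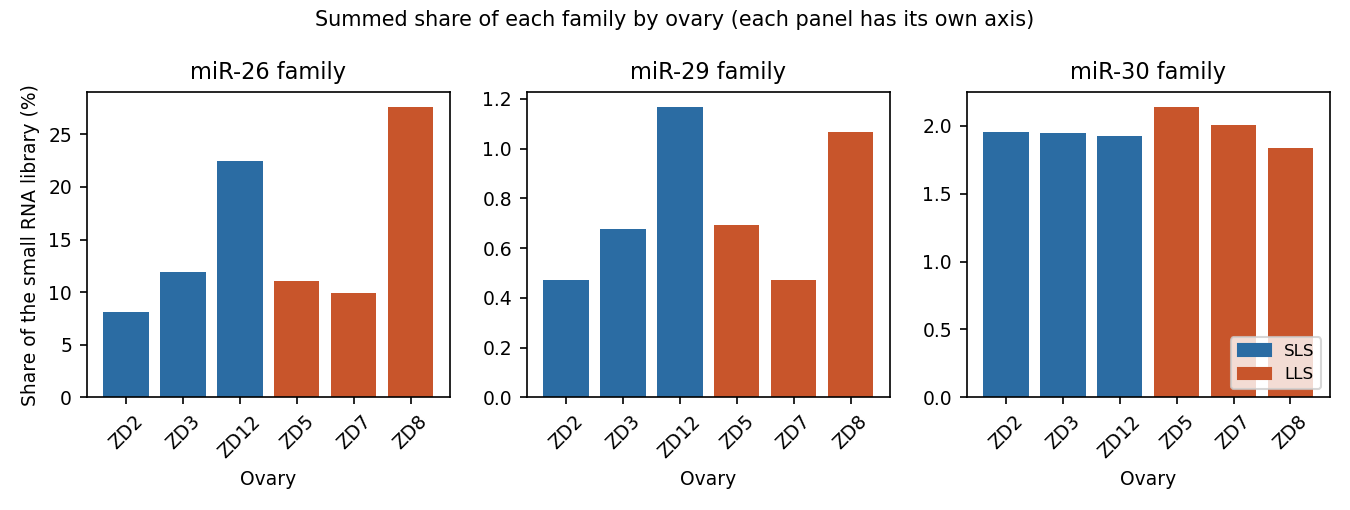
Summed share of the miR-26, miR-29 and miR-30 families in each small RNA library, in percent of the library total, with 1 bar per ovary, blue for SLS and orange for LLS, and a separate axis from 0 in each panel. miR-26 and miR-29 stood highest in ZD8 and ZD12, while miR-30 stayed between 1.84% and 2.14%.

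The members were spread widely in level, from a mean of 139827 RPM for miR-26a to 7.39 RPM for miR-29a-5p. miR-26a ranked between 1 and 3 among all miRNAs in every library and was the top miRNA in ZD12 and ZD8. miR-26b-5p, miR-30d, miR-29a-3p and miR-30e-5p followed with mean levels of 11844, 7556, 7168 and 4708 RPM, and the ranges of each neighbouring pair in this order overlapped. miR-30c-5p at 2870 RPM and miR-30a-5p at 2758 RPM came next and could not be ordered, since each was the higher one in 3 of 6 libraries. miR-30b-5p had a mean of 973.6 RPM and miR-30e-3p one of 671.6 RPM, miR-29b one of 281.5, and miR-30a-3p and miR-29c were at 120.8 and 120.6 RPM with overlapping ranges. The other 5 members, all opposite arms, had means between 7.39 and 17.3 RPM and rested on 13 to 204 reads per library.

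**Figure D2:**
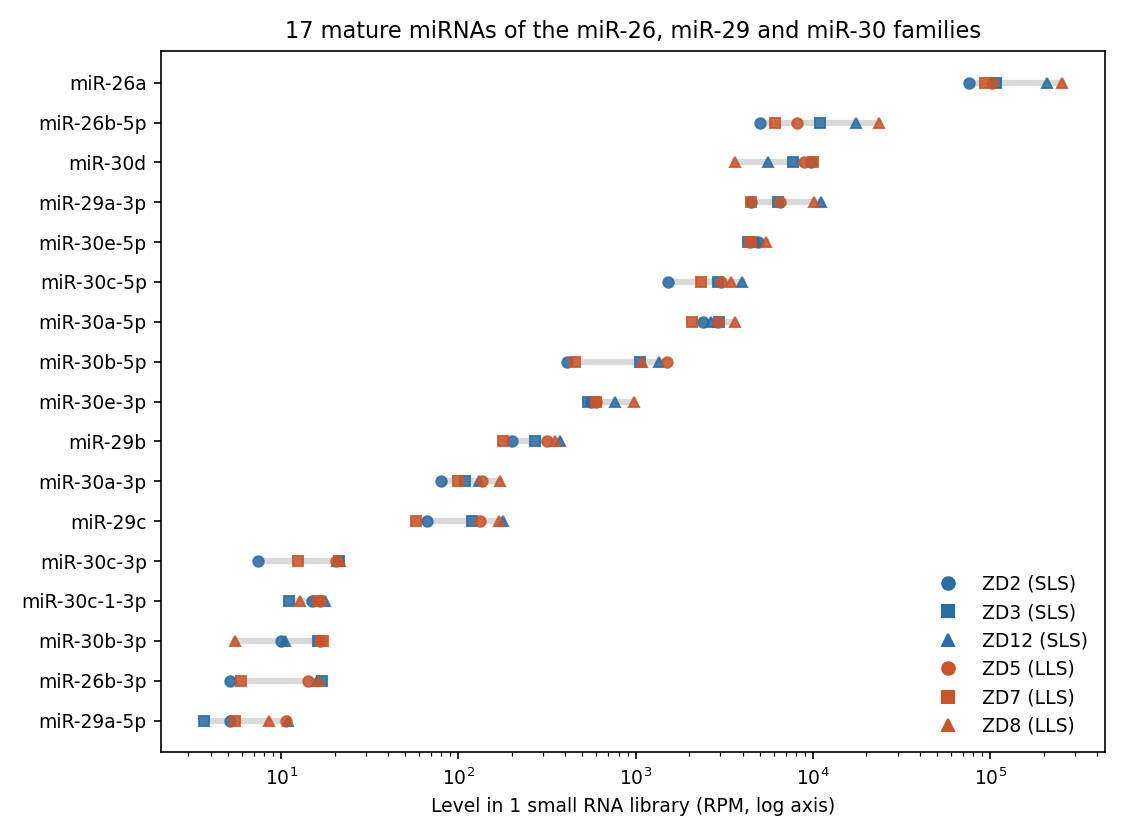
Level of each of the 17 members in each small RNA library, in RPM on a log axis, with 1 point per ovary, blue for SLS and orange for LLS, and a grey line over the range. Blue and orange points overlap for every member, and miR-26a lies apart from the rest at 75829 to 252876 RPM.

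miR-26a, the most abundant member, was at 75829, 107840 and 207172 RPM in SLS and at 102057, 93190 and 252876 RPM in LLS, in the same order of ovaries, which is kept throughout. It was 3.33 times as high in ZD8 as in ZD2, and the 4 lower ovaries held both groups. The difference in mean log2(RPM + 1) between LLS and SLS was 0.17 ± 0.61 (SE; limma, adjusted p = 0.997; exact two-sided permutation p = 0.7, n = 3 per group, where 0.1 is the smallest p possible). miR-26b-5p, which differs by 2 bases, had 5031, 10875 and 17446 RPM in SLS and 8155, 6080 and 23475 RPM in LLS. It was highest in the same 2 ovaries, and its difference was 0.10 ± 0.64 (SE; limma, adjusted p = 0.997). The ratio of miR-26a to miR-26b-5p stayed between 9.92 and 15.3, so that miR-26a made up 90.8% to 93.9% of its family in every ovary.

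miR-29a-3p carried 93.4% to 95.2% of the miR-29 family. It was at 4440, 6370 and 11125 RPM in SLS and at 6466, 4488 and 10117 RPM in LLS, with ZD12 highest and the lowest value of each group nearly the same. The LLS minus SLS difference was -0.03 ± 0.48 (SE; limma, adjusted p = 0.997). miR-29b had 199.9, 271.4 and 372.7 RPM in SLS and 314.5, 178.9 and 351.5 RPM in LLS. miR-29c, which shares its seed, had 66.6, 119.0 and 178.8 RPM in SLS and 132.8, 57.9 and 168.4 RPM in LLS. Both were highest in ZD12 and lowest in ZD7, and the differences between the groups were -0.01 ± 0.43 and -0.04 ± 0.56 (SE). miR-29b was 2.08 to 3.09 times as high as miR-29c, and miR-29a-3p was 20.6 to 29.8 times as high as miR-29b, although MIR29A and MIR29B-1 lie within 489 nt of each other.

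Among the miR-30 members, miR-30d and miR-30e-5p behaved differently from ovary to ovary. miR-30d was at 9687, 7667 and 5544 RPM in SLS and at 8834, 9991 and 3615 RPM in LLS, so that it was lowest in ZD8, then in ZD12, where miR-26a was highest. Its difference between the groups was -0.12 ± 0.49 (SE; limma, adjusted p = 0.997). miR-30e-5p was at 4906, 4266 and 4821 RPM in SLS and at 4378, 4448 and 5426 RPM in LLS. Its SD over the 6 ovaries was 0.13 on the log2 scale, the second lowest of the 353 miRNAs tested, whose median SD was 0.55 on this scale to the library total. miR-30d made up 49.8% of the family in ZD7 and 19.7% in ZD8, where miR-30e-5p, at 29.6%, was the leading member.

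miR-30a-5p and miR-30c-5p took intermediate places. miR-30a-5p was at 2390, 2930 and 2650 RPM in SLS and at 2904, 2074 and 3603 RPM in LLS, an SD of 0.27 on the log2 scale. miR-30c-5p was at 1528, 2907 and 3981 RPM in SLS and at 3023, 2342 and 3442 RPM in LLS, highest in ZD12. Both group ranges overlapped, and the differences were 0.08 ± 0.36 for miR-30a-5p and 0.15 ± 0.44 for miR-30c-5p (SE).

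miR-30b-5p, whose hairpin is the neighbour of that of miR-30d, had a different profile. It was at 406.9, 1050 and 1346 RPM in SLS and at 1500, 453.7 and 1086 RPM in LLS, low in ZD2 and ZD7, where miR-30d was highest. miR-30d was therefore 23.8 times as high as miR-30b-5p in ZD2, 22.0 times in ZD7 and 3.33 times in ZD8. The opposite arm miR-30b-3p kept closer to miR-30d, with a ratio of 476 to 976, an SD of 0.37 on the log2 scale against 1.21 for miR-30d over miR-30b-5p. miR-30b-3p made up 2.38%, 1.51% and 0.778% of the reads of its hairpin in SLS and 1.09%, 3.64% and 0.506% in LLS. The 95% Wilson intervals, 3.04% to 4.34% in ZD7 and 0.382% to 0.671% in ZD8, did not overlap, but they cover counting error only, compare single libraries and rest on 116 and 48 reads of miR-30b-3p. Reads of miR-30b-5p and miR-30c-5p share their first 18 bases, and whether some were assigned to the other was not tested.

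The arms of the other hairpins were steadier. miR-30a-5p was 20.4 to 30.02 times as high as miR-30a-3p, and miR-30e-5p was 5.54 to 8.79 times as high as miR-30e-3p, the most abundant opposite arm. miR-30e-3p was at 557.9, 535.1 and 759.2 RPM in SLS and at 599.8, 597.8 and 979.7 RPM in LLS, with a difference of 0.21 ± 0.37 (SE). miR-30a-3p, with 79.6, 108.3 and 129.7 RPM in SLS and 134.9, 99.9 and 172.5 RPM in LLS, had the second largest difference of the members at 0.35 ± 0.42 (SE). miR-26b-5p was 578 to 1436 times as high as miR-26b-3p, and miR-29a-3p was 604 to 1733 times as high as miR-29a-5p. For these 2 hairpins the ratio rests on as few as 30 and 13 reads of the lower arm. The 2 hairpins that give miR-30c-5p can be told apart only by their opposite arms, and the ratio of miR-30c-3p (MIR30C-2) to miR-30c-1-3p (MIR30C-1) ran from 0.494 in ZD2, with 43 reads of miR-30c-3p, to 1.92 in ZD3, with 39 reads of miR-30c-1-3p.

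**Figure D3:**
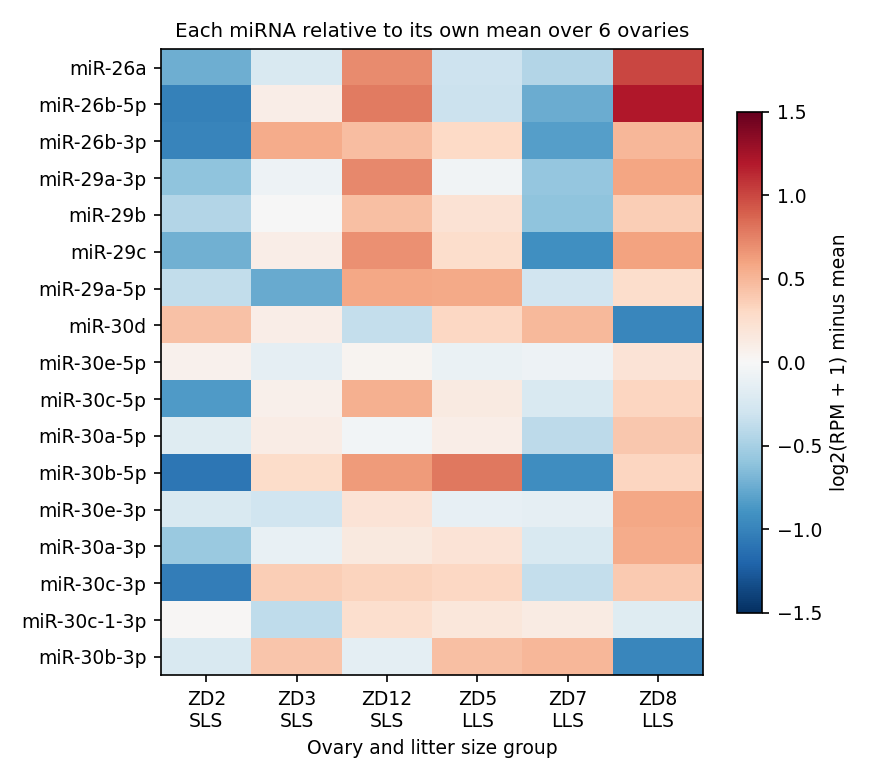
Each member's log2(RPM + 1) minus its own mean over the 6 ovaries, with ovaries in columns, members in rows ordered by family and mean level, red above and blue below the mean. miR-26 and miR-29 members are red in ZD12 and ZD8, miR-30d and miR-30b-3p are blue in ZD8, and miR-30e-5p is pale throughout on this scale to the library total.

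Of the 17 members, 7 were highest in ZD8, 6 in ZD12, 2 in ZD7 and 1 each in ZD3 and ZD5, and 8 were lowest in ZD2. Over all 353 miRNAs tested, 15.9% were highest in ZD8 and 11.9% in ZD12, while 26.3% were lowest in ZD2 and 39.9% in ZD8. Only miR-30d and miR-30b-3p, of the members, were lowest in ZD8. This pattern depended on the scale, because the median log2(RPM + 1) of the tested miRNAs was 5.17 in ZD8 against 5.91 to 6.53 in the other ovaries. After each library was centred on that median, a description chosen after seeing the data, 15 of the 17 members were highest in ZD8, beside 51.3% of all tested miRNAs, and none was lowest there. On that scale miR-30d was lowest in ZD12 and highest in ZD2 with an SD of 0.31, and the SD of miR-30e-5p was 0.59 in place of 0.13. miR-26a was highest in ZD8 on both scales. The ovary with the highest miR-26a, ZD8, also had the lowest luteal sum and the highest theca and oocyte sums given above. ZD12, next for miR-26a, had the next highest theca sum. Of 3 smooth muscle markers, ACTA2 was highest in ZD2, but MYH11 was at 190.3 FPKM in ZD8 and 47.1 in ZD12 against 15.5 to 28.4 elsewhere. DES was at 27.1 FPKM in ZD8, 25.1 in ZD2 and 14.9 in ZD12. The 3 summed to 1152 FPKM in ZD2, 654.3 in ZD12 and 645.9 in ZD8, against 219.4 to 422.8 elsewhere. The 3 T cell markers and the 3 macrophage markers were all highest in ZD8, beside 44.6% of all genes tested. Their sums there were 12.6 and 30.2 FPKM against 1.91 to 4.46 and 13.7 to 25.3 elsewhere. The part of these markers in the result was not tested. The luteal sum of ZD12, 9167 FPKM, lay near those of the other SLS ovaries. In bulk tissue, fewer cells of a type and less RNA per cell cannot be told apart.

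The litter size comparison asks which members differ between SLS and LLS ovaries, and none passed the test. All 17 passed the filter of at least 1 RPM in at least 3 libraries. A miRNA was called when its adjusted p was below 0.05 and its log2 fold change was beyond 1 in either direction. By this rule limma called 0 of 17 members and 0 of 353 miRNAs (0%), with none of the 353 at an unadjusted p under 0.05. edgeR's quasi-likelihood test, edgeR's exact test and DESeq2 on the recovered reads also called 0 of 353, with 4, 3 and 7 miRNAs at an unadjusted p under 0.05 and no member among them. The members' differences ran from -0.12 for miR-30d to 0.36 ± 0.50 (SE) for miR-29a-5p. Their SEs ran from 0.33 to 0.64, and every member's difference was smaller than its own SE.

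Of the 17 members, 11 were higher in LLS, but this count was 9 with array weights, 15 without ZD12 and 7 without ZD8. Median centring, which moves the difference of all miRNAs by the same 0.0648, gave 16, as members near 0 then change sign together. The SLS and LLS values overlapped for every member, that is 0 of 17 had groups apart, beside 10 of the 353 miRNAs (2.83%). Leaving out ZD12 left 2 members apart (miR-29a-5p and miR-30e-3p, higher in LLS) beside 45 of 353 miRNAs (12.7%), leaving out ZD7 left miR-30a-3p beside 30 miRNAs (8.50%), and leaving out ZD8 left miR-30b-3p beside 72 (20.4%).

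**Figure D4:**
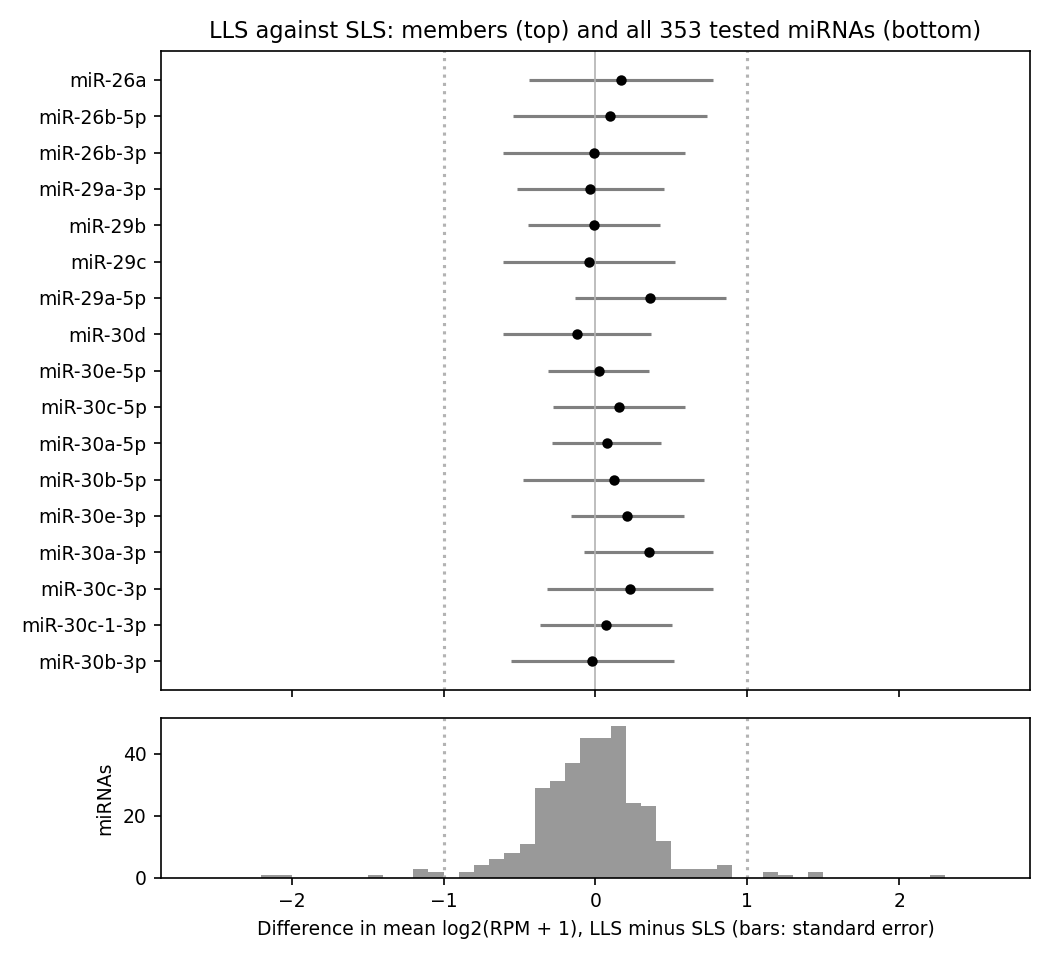
Difference in mean log2(RPM + 1), LLS minus SLS, for each member with its standard error (top), and the histogram of the same difference over all 353 tested miRNAs (bottom), with dotted lines at -1 and 1. All 17 points lie between -0.12 and 0.36, within the bulk of the histogram.

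For the leading member of each family, the miRNAs outside the 3 families with the most similar profile over the 6 libraries are given as a description, since levels in one library share its total. miR-26a was followed most closely by miR-374a-5p (r = 0.981), miR-628-5p (r = 0.975) and miR-181c (r = 0.974), with Spearman's rho of 1, 0.943 and 0.771. Without ZD8 and ZD12 r was 0.689, 0.750 and 0.603, so that the size of r, though not the order of the ovaries for miR-374a-5p, rests on those ovaries. miR-29a-3p was followed by miR-99a-3p (r = 0.982), miR-195 (r = 0.964) and miR-199a-5p (r = 0.963), with rho of 0.943, 0.943 and 0.829, and without ZD12 and ZD8 r was 0.981, 0.924 and 0.872. miR-30d was followed by miR-32 (r = 0.999), miR-21-5p (r = 0.999) and miR-21-3p (r = 0.998), with rho of 1, 1 and 0.943, and without ZD8 and ZD12 r was 0.995, 0.997 and 0.990. miR-21-5p, a miRNA known from many growth settings, ran from 33686 RPM in ZD8 to 314092 RPM in ZD7, so that miR-26a was 0.246 times as high as miR-21-5p in ZD2 and 7.51 times as high in ZD8.

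The host genes were read from the gene libraries in FPKM, a scale per transcript length. CTDSP2, the host of miR-26a, was at 71.6, 44.5 and 89.4 FPKM in SLS and at 46.8, 56.9 and 177.6 FPKM in LLS, and CTDSP1, the host of miR-26b, was at 40.1, 26.6 and 49.2 FPKM in SLS and at 25.2, 31.0 and 80.0 FPKM in LLS. Both code for phosphatases of the RNA polymerase tail. As for miR-26a, ZD8 was highest and ZD12 next, but ZD2, lowest for miR-26a, followed directly after them for both genes. CTDSPL, which in human holds a further miR-26a hairpin, was between 30.5 and 37.1 FPKM in all 6 ovaries and lowest in ZD8. NFYC, a subunit of the CCAAT-binding factor and host of miR-30c-1 and miR-30e, was at 8.10, 6.51 and 10.9 FPKM in SLS and at 6.79, 7.77 and 25.4 FPKM in LLS. Both NFYC and miR-30e-5p were highest in ZD8, where miR-30e-5p was 1.27 times its lowest level on the scale to the library total, while miR-30c-1-3p, the arm that marks the other hosted hairpin, was highest in ZD12 at 17.7 RPM and at 12.8 RPM in ZD8. LOC102157778 was at 0.171 to 1.49 FPKM. Over all 12260 genes tested, 44.6% were highest in ZD8, and none of the 4 listed hosts passed the test between the groups.

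Known targets of the 3 families were taken from lists of textbook targets. In the annotated 3′ untranslated regions, the match on the sense strand to the seed of miR-29b and miR-29c, TGGTGCT, which pairs with bases 3 to 9 of miR-29a-3p as listed, was held by 12 of 16 listed miR-29 targets and by 13.1% of all 18167 genes with such a region. The match to the miR-30 seed, TGTTTAC, was held by 6 of 7 listed targets with an annotated region and by 13.6% of all, and that of miR-26, TACTTGA, by 2 of 5 and by 9.74%. The median length of these regions was 1133 nt for the listed miR-29 targets, 1061 nt for those of miR-30 and 289 nt for those of miR-26, against 942 nt over all genes. One example per family is printed, with the match in capitals, as the 22 bases at these sites.
COL3A1: ttcaaatgtctcaaTGGTGCTa
BECN1: tattcaatagcacaTGTTTACa
EZH2: cttggaataaacaaTACTTGAa
The capitals lie at chr15:93595659-93595665 on the plus strand for COL3A1, at chr12:20053477-20053483 on the plus strand for BECN1 and at chr9:109450931-109450937 on the plus strand for EZH2. A match is a description of the letters and not a measured site.

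None of the listed hosts and targets that could be tested passed in the gene table (0 of 33, beside 0 of 12260 genes, 0%), where 216 genes had an unadjusted p under 0.05 in limma and the smallest adjusted p was 0.860. limma with array weights called 13 genes and limma without ZD8 called 20, and no listed gene was among them. Of the 16 miR-29 targets, 10 were lowest in ZD8, beside 26.3% of all genes. DNMT3A, TET1, TET2 and TET3 were highest there, beside 44.6% of all genes, and these 4 were the ones higher in LLS. The median difference of the 16 was -0.45 beside 0.02 over all genes. COL3A1, a fibrillar collagen, was at 3222, 1940 and 1430 FPKM in SLS and at 2262, 2213 and 451 FPKM in LLS. COL1A1, the chain of the main collagen of bone and skin, was at 3002, 708 and 721 FPKM in SLS and at 650, 1057 and 377 FPKM in LLS. Both were lowest in ZD8, where miR-29a-3p was second highest, and highest in ZD2, where it was lowest. In ZD12, where miR-29a-3p was highest, COL1A1 lay between the values of ZD3 and ZD7. TET2, an enzyme of DNA demethylation and another listed target, was instead highest in ZD8 and lowest in ZD2, at 3.49, 7.17 and 5.39 FPKM in SLS and at 5.85, 4.43 and 14.3 FPKM in LLS. The difference of COL1A1 was -0.85 ± 0.76 (SE; limma, adjusted p = 0.999). ZD8 also stood apart in luteal and oocyte markers, and of 3 fibroblast markers DCN and PDGFRA were highest there, at 1854 and 219.7 FPKM, while LUM was at 5.39 FPKM and highest in ZD5, at 9.91. The 3 summed to 2079 FPKM in ZD8, nearly all of it DCN, against 481 to 985 elsewhere. Their part in these values was not tested.

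The 8 miR-30 targets included 2 whose groups did not overlap, beside 628 of 12260 genes (5.12%). DLL4, a Notch ligand of growing vessels, was at 12.0, 11.6 and 10.5 FPKM in SLS and at 8.40, 7.48 and 5.65 FPKM in LLS. BECN1, a core autophagy gene, was at 25.0, 29.5 and 28.0 FPKM in SLS and at 21.2, 22.9 and 18.3 FPKM in LLS. Both lay lower in every LLS ovary, with differences of -0.61 ± 0.26 and -0.39 ± 0.24 (SE), and neither passed after adjustment (limma, adjusted p = 0.999 for both). The 3 endothelial markers were all lowest in ZD8 too, where they summed to 84.9 FPKM against 179.8 to 268.6 in the other ovaries. One of them, PECAM1, also lay lower in every LLS ovary, at 87.7, 105.0 and 89.4 FPKM in SLS and at 49.0, 86.0 and 25.4 FPKM in LLS, while VWF had the higher mean in LLS. So did the luteal marker LHCGR and the granulosa marker INHA lie lower in every LLS ovary. Their differences were -1.28 ± 0.43 and -1.86 ± 0.58 (SE; limma, adjusted p = 0.999 for both). The groups overlapped for all other listed cell type markers. The part of these markers in the result was not tested. Of the 8 miR-30 targets, 5 were lowest in ZD8, beside 26.3% of all genes tested, and 1 was higher in LLS. Of the 5 tested miR-26 targets, 2 were higher in LLS, with a median difference of -0.04, and 4 of the 6 listed were highest in ZD8, beside 44.6% of all genes tested. EZH2 was at 2.87, 4.80 and 3.26 FPKM in SLS and at 2.84, 2.90 and 3.79 FPKM in LLS.

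**Figure D5:**
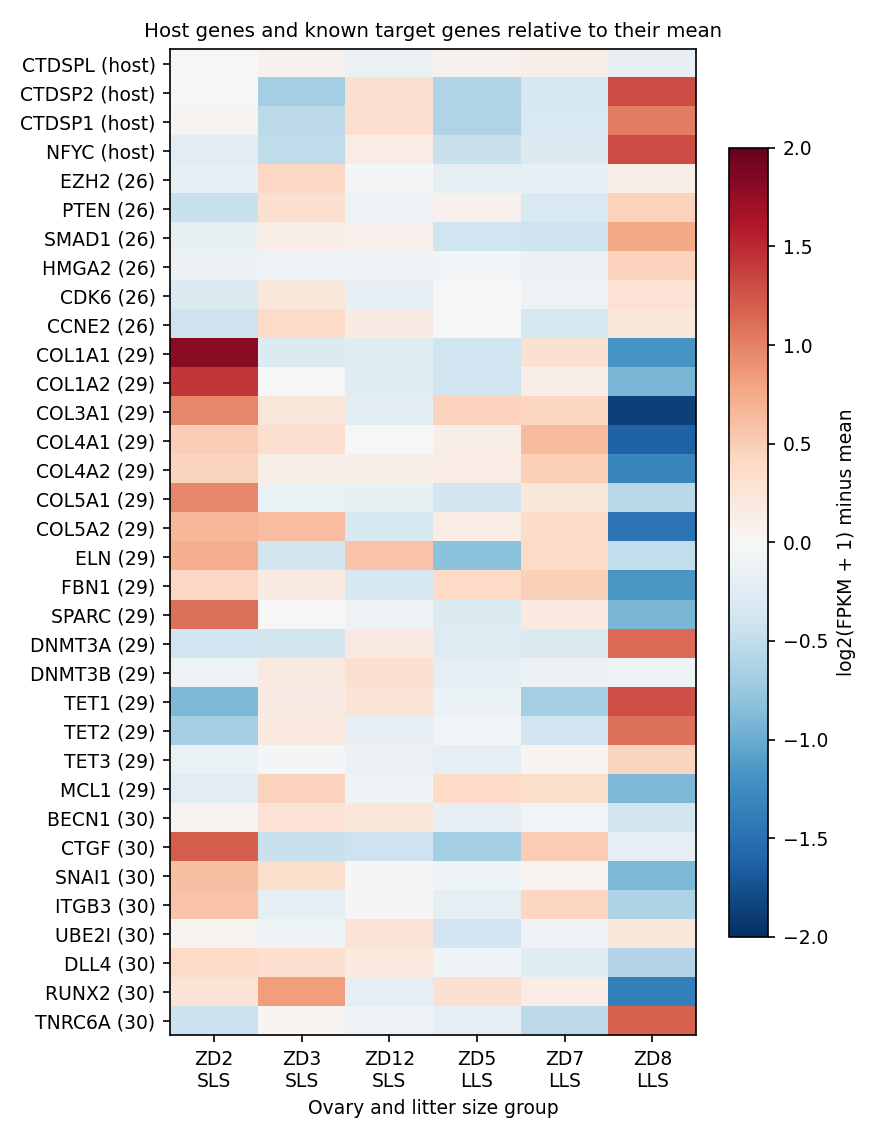
log2(FPKM + 1) of the host genes and of the listed targets of miR-26, miR-29 and miR-30 minus each gene's mean over the 6 ovaries, with ovaries in columns and the list in brackets, red above and blue below the mean. The collagens are blue in ZD8 and, for COL1A1 and COL1A2, red in ZD2, while CTDSP2, CTDSP1, NFYC and TET2 are red in ZD8.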

How the data were processed

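Small RNA and rRNA-depleted RNA of the left ovary were each sequenced from 3 SLS and 3 LLS sows. The authors deposited mature miRNA levels as RPM, reads scaled to the library total, though they call the unit TPM. All 2618 values above 0 gave whole reads within 0.001 (100%). For genes, the authors trimmed reads with NGSQCToolkit and deposited FPKM, from which no depth was recovered here. The submitters' processing notes name BWA, HISAT2 and Sscrofa11.1. The miRNA annotation and counting program are not given in the sources used here. limma 3.58.1 (R 4.3.3, trended variance) was fitted to log2(value + 1) for features at 1 or more in at least 3 libraries, 353 of 457 miRNAs and 12260 of 29884 genes, with Benjamini-Hochberg adjustment over all of them. It was tested on simulated data. edgeR 4.0.16 and DESeq2 1.42.0, on the recovered reads, were alternatives. All 17 members were accounted for, those at 100 RPM or more in every library by ovary (miR-29c and miR-30a-3p were added after their values were seen), with listed hosts and targets and the 3 most similar miRNAs per leading member. Members and lists were chosen with earlier results of these data known. Mature sequences were matched exactly to the reference.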

Additional observations from a re-analysis of the deposited data

How the results depend on the processing

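No member was called under any of the 15 alternatives, but the sign of the differences changed in many. The LLS minus SLS difference of the family shares, in percentage points, kept its sign under the other 3 scales but not when single ovaries were left out. It was 2.05 for miR-26 with all ovaries, -0.973 without ZD2, -3.67 without ZD8 and 6.22 without ZD12. For miR-29 it was -0.0288, 0.170 without ZD12 and 0.106 without ZD7, and for miR-30 it was 0.0489 and -0.0251 without ZD5. Of 255 log2 differences of members, 57 had the opposite sign, 1 was 0 and 197 had the same sign, and the cause was not tested. Under quantile normalization miR-26a was at 0, and the differences with the opposite sign were 0.13 for miR-26b-3p, -0.022 for miR-30a-5p and 0.046 for miR-30b-3p. With array weights they were -0.082 for miR-26a, -0.35 for miR-26b-5p, -0.077 for miR-30a-5p, 0.16 for miR-30b-3p, -0.00073 for miR-30c-3p and 0.19 for miR-30d. Median centring moves every miRNA by 0.0648, so its sign changes, all in members near 0, say nothing about single members. They were 0.053 for miR-26b-3p, 0.031 for miR-29a-3p, 0.054 for miR-29b, 0.022 for miR-29c and 0.045 for miR-30b-3p. On recovered reads, edgeR's quasi-likelihood test gave 0.0011 for miR-26b-3p, 0.016 for miR-29b, 0.023 for miR-29c and -0.015 for miR-30c-1-3p, and its exact test gave 0.0014, 0.016, 0.023 and -0.018 for the same miRNAs and 0.0013 for miR-30b-3p. DESeq2 gave 0.041 for miR-26b-3p, 0.036 for miR-29a-3p, 0.064 for miR-29b, 0.065 for miR-29c and 0.053 for miR-30b-3p. Without the reads of miR-21-5p, an alternative chosen after seeing the data, miR-26b-3p was at 0.00089 and miR-29b at 0.00095. Leaving out each ovary in turn gave -0.29 to 0.57 for miR-26a, -0.51 to 0.40 for miR-26b-3p, -0.48 to 0.51 for miR-26b-5p, -0.34 to 0.32 for miR-29a-3p, -0.23 to 0.29 for miR-29b, -0.42 to 0.41 for miR-29c, -0.11 to 0.29 for miR-30a-5p, -0.27 to 0.46 for miR-30b-3p, -0.39 to 0.62 for miR-30b-5p, -0.10 to 0.21 for miR-30c-1-3p, -0.24 to 0.47 for miR-30c-3p, -0.23 to 0.46 for miR-30c-5p, -0.40 to 0.34 for miR-30d, -0.026 to 0.37 for miR-30e-3p and -0.077 to 0.078 for miR-30e-5p. miR-29a-5p (0.071 to 0.74) and miR-30a-3p (0.16 to 0.55) kept their sign in these fits. The count of members whose groups do not overlap ran from 0 to 2. The smallest adjusted p over all miRNAs was 0.318 with array weights and 0.0691 without ZD8, and for a member 0.944, with array weights. miR-29a-5p had the fewest reads of the members, 13 to 107 per library.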

Other observations

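The gene table also lists hairpins of the families as genes of their own, except that of miR-26b, which has no annotated hairpin gene. They were read from ribosome-depleted total RNA. Of 11 annotated hairpin genes, 9 were highest in ZD8, beside 44.6% of the 12260 genes tested, although most of the hairpin genes were too low to be among those, and all 11 were listed at 0 in at least 1 ovary. MIR29C was at 14.4 FPKM in ZD8 and 3.22 in ZD12 and at most 1.58 elsewhere, MIR26A was at 11.8 FPKM in ZD8 and 0 to 3.13 elsewhere, and MIR30E was at 8.52 FPKM in ZD8 and at most 1.30 elsewhere. MIR30D, whose mature miRNA was lowest in ZD8, was also highest there, at 2.75 FPKM against 0 to 0.718 in the other ovaries. Hairpins are shorter than the sequenced fragments, their read counts are unknown, and what these reads stand for was not tested. Groups of 3 ovaries are too small for the outlier test that was set for larger groups.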
